A study of Mus musculus with 6 samples.

Results

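The genes of fatty acid uptake, binding and activation were taken from the liver RNA-seq as the 10 rows whose symbol is *Cd36*, *Slc27a1*, *Slc27a2*, *Slc27a4*, *Fabp1*, *Fabp2*, *Fabp4*, *Acsl1*, *Acsl4* or *Acsl5*, of 25403 genes listed. Each symbol had 1 row, and all 10 passed the filter on low counts, as did 14496 genes in all. The 3 that differed between the genotype labels past the threshold moved in opposite directions. *Acsl1* and *Slc27a2*, both highly expressed in hepatocytes, were 1.81-fold and 1.54-fold lower in livers labelled *Themis*-KO, and *Fabp4*, the binding protein of adipocytes, macrophages and endothelial cells, was 1.86-fold higher.

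Long-chain fatty acids enter hepatocytes from the blood, helped at the membrane by CD36 and by the fatty acid transport proteins (FATPs, the Slc27a family), which also act as acyl-CoA synthetases. In the cytosol they are carried by fatty acid–binding proteins (FABPs), of which FABP1 is the abundant liver form. The long-chain acyl-CoA synthetases (ACSLs) attach coenzyme A, after which a fatty acid can be oxidized, stored as triglyceride or built into membranes, and several of these genes are classical targets of the nuclear receptors PPARα and PPARγ.

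Poly(A) RNA was sequenced from whole liver of 3 mice labelled wild-type C57BL6/J (WT) and 3 labelled Themis KO, a deletion carried in the whole body and therefore by every liver cell type. All 6 mice were given a diet with 40% of energy from fat and 20% from fructose and with 2% cholesterol for 3 months from the age of 10 to 12 weeks, to induce metabolic dysfunction–associated steatohepatitis (MASH), so no liver here was free of the diet. The deposited values are estimated counts per gene, with 20679642 to 25649767 per library, and levels are given as CPM (counts divided by the library total after TMM scaling), mean ± SD with n = 3 livers, and where 3 values follow each other they are those of replicates 1, 2 and 3. *Themis* itself was at 8.07, 25.6 and 12.0 CPM in the WT livers and at 8.63, 7.74 and 9.97 CPM in the *Themis*-KO livers, so its counts overlapped between the labels (log2 fold change −0.79, SE 0.38, adjusted p = 0.199). Which exons the allele lacks is not given in the sources used here, and each direction below rests on the labels. WT replicates 1 and 2 stood apart from the other 4 livers in the split of reads between the mitochondrial gene *mt-Nd3* and its nuclear copy *Gm28438*, which took 96.6% and 96.8% of their summed counts against 2.2% to 3.26%. *Themis*-KO replicate 3 also stood apart. The chi-square of its counts per degree of freedom was 41.4 and 42.3 against *Themis*-KO replicates 1 and 2, 36.2 against WT replicate 3, and 9.83 between *Themis*-KO replicates 1 and 2. Without it 4267 genes were called in place of 1321. The split of reads between *mt-Nd3* and *Gm28438* is called the mitochondrial type below, a grouping made from these counts and not given by the labels. It leaves WT replicate 3 as the only WT liver of the type of the *Themis*-KO livers. The Y-linked gene *Ddx3y* was at 36.3 to 45.4 CPM and *Xist* at 0.378 CPM or less in all 6 libraries, and the study's methods name males for its metabolic experiments. The strain of the *Themis*-KO mice is not given in the sources used here.

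The sequences before the transcription start are shown for *Acsl1* and *Slc27a2*, the members called lower. Those of *Fabp1* and *Cd36* were picked because they hold a near match, with 1 and 2 mismatches, to the letters read by PPAR with its partner RXR. PPAR binds a direct repeat of the hexamer AGGTCA with any 1 base between the copies, called DR1. Sequences are from RefSeq on GRCm38.p6, in which 9 members had entries, and run over the 250 bases before the start, 5′ to 3′ on the strand of the gene. Capitals mark AGGTCA or a DR1 with at most 2 mismatches on either strand.
Acsl1 (chr8:46470787-46471036, forward strand): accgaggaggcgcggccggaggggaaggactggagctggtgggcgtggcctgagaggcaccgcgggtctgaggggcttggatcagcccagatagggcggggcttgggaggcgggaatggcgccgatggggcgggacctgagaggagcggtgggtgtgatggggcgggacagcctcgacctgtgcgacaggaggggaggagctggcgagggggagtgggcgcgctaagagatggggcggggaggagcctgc
Slc27a2 (chr2:126552774-126553023, forward strand): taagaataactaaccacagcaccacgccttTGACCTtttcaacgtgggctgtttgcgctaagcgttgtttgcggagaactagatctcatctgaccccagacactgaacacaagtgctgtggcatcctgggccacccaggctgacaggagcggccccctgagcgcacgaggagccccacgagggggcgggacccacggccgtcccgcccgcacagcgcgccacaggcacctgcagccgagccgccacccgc
Fabp1 (chr6:71199629-71199878, forward strand): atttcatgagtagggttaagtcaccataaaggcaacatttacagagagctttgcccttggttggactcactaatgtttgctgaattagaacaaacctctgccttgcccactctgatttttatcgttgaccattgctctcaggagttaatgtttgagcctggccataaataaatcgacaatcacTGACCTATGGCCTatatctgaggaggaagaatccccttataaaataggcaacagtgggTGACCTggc
Cd36 (chr5:17835897-17836146, reverse strand): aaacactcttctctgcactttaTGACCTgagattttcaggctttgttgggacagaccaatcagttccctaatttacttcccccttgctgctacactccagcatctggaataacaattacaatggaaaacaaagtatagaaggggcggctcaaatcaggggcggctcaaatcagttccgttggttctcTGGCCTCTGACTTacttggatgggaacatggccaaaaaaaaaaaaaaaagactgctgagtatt

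The *Fabp1* promoter held a DR1 with 1 mismatch on the opposite strand from −67 to −55, counted from the transcription start. Of 32851 promoters of 300 bases, 0.554% held a DR1 with at most 1 mismatch. The *Cd36* promoter held one with 2 mismatches from −63 to −51, and 3.86% of promoters held one with at most 2. Among the other members with an entry, none had a DR1 within 2 mismatches in these windows. *Slc27a2* held the single hexamer from −220 to −215, *Cd36* from −228 to −223 and *Fabp1* from −67 to −62, inside its DR1, and from −9 to −4. The hexamer was in 16.3% of all promoters. *Fabp1* also held TATAAA from −30 to −25, as did 13.6% of promoters somewhere in the window. *Acsl1*, whose upstream start is shown, has a second entry downstream. The window at the upstream start was 74% G or C with 30 CpG, and that at the downstream start 50% with 4 CpG. The *Slc27a2*, *Cd36* and *Fabp1* entries start inside the gene as annotated by GENCODE. For *Fabp1* that gene begins at 71199827, so the TATAAA and the hexamer from −9 to −4 lie within it and the DR1 before it. These matches are letters in a sequence, and no binding was measured.

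The 10 genes covered a range of levels from the most abundant transcripts of the liver to weakly expressed genes. Levels of different genes were compared per length, as counts divided by exon length and scaled to the same sum in each liver (TPM-like). On this scale, *Fabp1* averaged 20255 over the 6 livers and ranked 8 of 25353 genes, and *Slc27a2* averaged 1051 and ranked 95. *Fabp2* (277), *Acsl5* (233) and *Acsl1* (217) followed. *Cd36* was at 134, *Acsl4* at 42.9, *Fabp4* at 24.8, *Slc27a4* at 20.7 and *Slc27a1* at 5.68. The per-length order of *Fabp2*, *Acsl5* and *Acsl1* is not settled, since *Acsl1* came to 333, above both, when the longest transcript was used in place of all exons. The ranges of *Fabp4* and *Slc27a4* over the livers also overlapped on this scale.

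**Figure D1:**
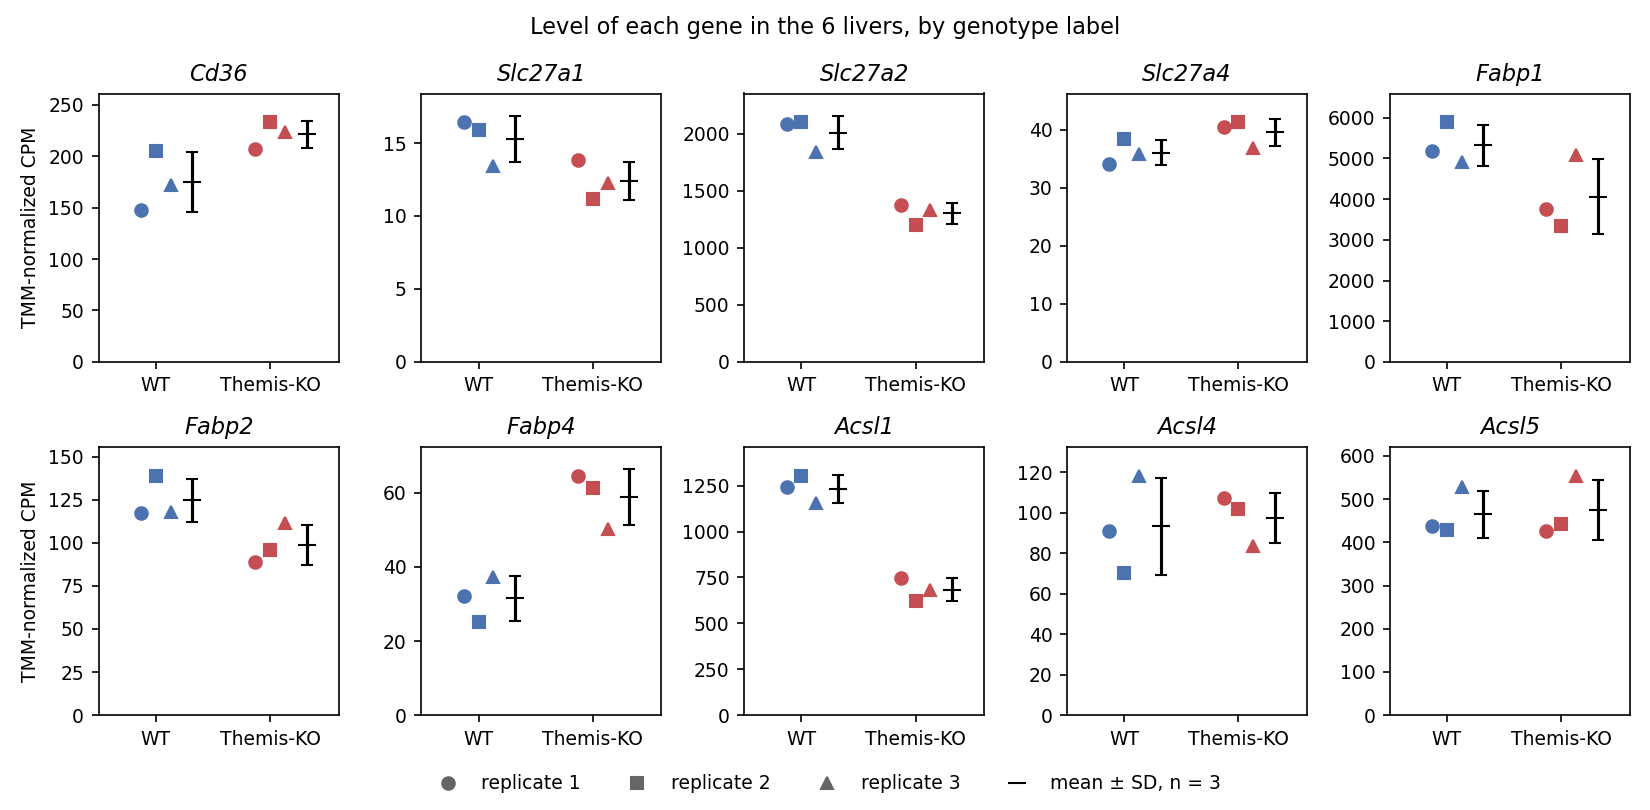
TMM-normalized CPM (y axis, from 0, a separate scale per gene) of the 10 genes in each liver, with WT in blue and *Themis*-KO in red, symbols for the replicate, and the mean ± SD of 3 livers in black. The *Acsl1* livers lie between 1154 and 1305 CPM in WT and between 619 and 747 CPM in *Themis*-KO, with no overlap, while the *Acsl5* livers overlap.

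The quasi-likelihood test of edgeR called 3 of the 10 genes (adjusted p below 0.05), 2 lower and 1 higher in livers labelled *Themis*-KO, beside 9.11% of all genes tested, 4.14% lower and 4.97% higher. In 5 of the 10 the livers of the labels did not overlap, 2 higher and 3 lower, and this held for 34.6% of all genes. The median log2 fold change of the 10 was −0.13, beside 0.0095 over all genes. With scaling to the total count instead of TMM, the median of all genes moved to 0.15 and that of the 10 to 0.0040. The same 3 members were then called, beside 12.7% of all genes, of which 1449 were higher and 387 lower in place of 721 and 600. With the mitochondrial type as a covariate 0 members and 0.0207% of all genes were called. In bulk tissue, fewer cells of a type and less RNA per cell cannot be told apart.

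Among the uptake genes, *Slc27a2* (FATP2, ENSMUSG00000027359, chromosome 2, 126552407 to 126588243, forward strand), a peroxisomal and plasma membrane transporter that is also a very-long-chain acyl-CoA synthetase, was at 2088, 2102 and 1842 CPM in the WT livers. It was at 1380, 1201 and 1331 CPM in the *Themis*-KO livers. Every *Themis*-KO liver was below every WT liver, and WT replicate 3 was the lowest of its group. *Slc27a2* fell from 2011 ± 146 to 1304 ± 92.7 CPM, a log2 fold change of −0.62 with SE 0.10 (adjusted p = 0.0224). With the mitochondrial type as a covariate the log2 fold change was −0.50 (adjusted p = 0.394), and with 1 liver left out in turn it ran from −0.69 to −0.58. The call held when WT replicate 3 (adjusted p = 0.0246) or *Themis*-KO replicate 3 (0.00817) was dropped. The adjusted p was 0.0966, 0.0826, 0.0917 and 0.108 without WT replicates 1 and 2 and *Themis*-KO replicates 1 and 2.

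*Cd36* (ENSMUSG00000002944, chromosome 5, 17781690 to 17888801, reverse strand), the scavenger receptor and fatty acid translocase that is low in healthy hepatocytes and induced in fatty liver, was at 148, 205 and 172 CPM in the WT livers. It was at 207, 233 and 224 CPM in the *Themis*-KO livers. All *Themis*-KO livers were above the WT livers, but WT replicate 2 lay within 2 CPM of the lowest of them. The log2 fold change was 0.34 (SE 0.13, 95% interval 0.042 to 0.63), which did not pass the threshold (adjusted p = 0.124). It was 0.48 with scaling by total counts alone (adjusted p = 0.0508).

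The other transporters were low. *Slc27a1* (FATP1, the insulin-responsive form of muscle and fat; chromosome 8, 71568882 to 71587302, forward strand) was at 16.4, 15.9 and 13.5 CPM in WT and at 13.8, 11.2 and 12.2 CPM in *Themis*-KO livers. *Themis*-KO replicate 1 lay above WT replicate 3, and the log2 fold change of −0.30 (SE 0.13) had an adjusted p of 0.163. *Slc27a4* (FATP4, the main form of the small intestine; chromosome 2, 29802634 to 29817522, forward strand) was at 34.0, 38.3 and 35.8 CPM in WT and at 40.5, 41.2 and 36.8 CPM in *Themis*-KO livers. The groups overlapped and the log2 fold change was 0.13 (95% interval −0.070 to 0.34, adjusted p = 0.332).

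Among the binding proteins, *Fabp4* (ENSMUSG00000062515, chromosome 3, 10204088 to 10208576, reverse strand) was at 32.2, 25.2 and 37.3 CPM in the WT livers and at 64.7, 61.4 and 50.3 CPM in the *Themis*-KO livers. The groups did not overlap, and WT replicate 3 and *Themis*-KO replicate 3 were the nearest to each other. *Fabp4* rose from 31.6 ± 6.03 to 58.8 ± 7.53 CPM, a log2 fold change of 0.90 with SE 0.16 (adjusted p = 0.0246). With the mitochondrial type as a covariate it was 0.66 (adjusted p = 0.423), and with 1 liver left out it ran from 0.76 to 1.03. The adjusted p was 0.0245 without WT replicate 3 and 0.00429 without *Themis*-KO replicate 3. It was 0.104, 0.0761, 0.0963 and 0.104 without WT replicates 1 and 2 and *Themis*-KO replicates 1 and 2.

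*Fabp4* marks other cells than hepatocytes, and a part of the markers of such cells was called higher too. Of 12 macrophage markers tested, 4 were called higher and 0 lower, beside 4.97% and 4.14% of all genes. The log2 fold change was positive for 11 and negative for 1. Their summed level overlapped, at 357 to 623 CPM in WT and 602 to 799 CPM in *Themis*-KO livers. Of 12 endothelial markers, 1 was called higher, *Lyve1*, and the sum was 323 to 364 against 371 to 412 CPM. Of these, 10 were positive and 2 negative, with a median log2 fold change of 0.12. As a percentage of the summed macrophage markers of the same liver, *Fabp4* was at 9.04, 6.89 and 5.98 in WT and at 10.2, 7.69 and 8.36 in *Themis*-KO livers, which overlapped. As a percentage of the endothelial sum it was 9.97, 7.29 and 10.2 against 17.3, 16.6 and 12.2, without overlap. These ratios were chosen after the values were seen. The part of either cell type in the rise was not tested. Of 7 adipocyte markers in the table, *Adipoq* and *Plin1* were at or near 0, with at most 0.079 and 0.048 CPM in a liver. The other 5 were expressed, and the list summed to 1862 to 4208 CPM in WT and 1405 to 2025 CPM in *Themis*-KO livers, most of it *Car3*. *Cfd* was at 129, 72.1 and 34.4 CPM in WT and at 4.97, 3.96 and 4.77 CPM in *Themis*-KO livers. *Lipe* averaged 34.9 and 16.8, *Cidea* 32.04 and 44.1 and *Adrb3* 6.35 and 3.25 CPM. The part of adipocytes in the *Fabp4* values was not tested.

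*Fabp1* (ENSMUSG00000054422, chromosome 6, 71199827 to 71205023, forward strand), the liver form, was at 5189, 5889 and 4907 CPM in WT and at 3766, 3330 and 5097 CPM in *Themis*-KO livers. *Themis*-KO replicate 3 lay within the WT range and the other 2 below it. The log2 fold change was −0.39 (SE 0.17, 95% interval −0.78 to 0.0034, adjusted p = 0.166). Without *Themis*-KO replicate 3 it was −0.60 (adjusted p = 0.0146), so the call turned on that liver. *Fabp2* (chromosome 3, 122895072 to 122899506, forward strand), the intestinal form, was at 117, 139 and 118 CPM in WT and at 88.8, 95.8 and 112 CPM in *Themis*-KO livers. These did not overlap, but *Themis*-KO replicate 3 was the nearest to the WT livers here too. Its log2 fold change of −0.34 (SE 0.12) had an adjusted p of 0.0975, and −0.45 and 0.0203 without *Themis*-KO replicate 3. Of the enterocyte markers, *Vil1*, *Lct*, *Alpi*, *Cdx2*, *Cdh17* and *Muc13* were each under 1 CPM in every liver, and the seventh, *Apob*, is also made by hepatocytes.

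Among the activating enzymes, *Acsl1* (ENSMUSG00000018796, chromosome 8, 46471037 to 46536051, forward strand), the main long-chain synthetase of liver, fat and heart, had the lowest adjusted p of the 10. It was at 1242, 1305 and 1154 CPM in the WT livers and at 747, 619 and 683 CPM in the *Themis*-KO livers. Each WT liver was above each *Themis*-KO liver by a wide margin. *Acsl1* fell from 1234 ± 75.9 to 683 ± 63.9 CPM, a log2 fold change of −0.85 with SE 0.11 (95% interval −1.10 to −0.61, adjusted p = 0.0115). With the mitochondrial type as a covariate it was −0.76 (adjusted p = 0.256), and with 1 liver left out it ran from −0.93 to −0.79. The adjusted p was 0.0492, 0.0190 and 0.00370 without WT replicates 2 and 3 and *Themis*-KO replicate 3. It was 0.0563, 0.0506 and 0.0601 without WT replicate 1 and *Themis*-KO replicates 1 and 2.

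The other 2 synthetases did not follow *Acsl1*. *Acsl5* (chromosome 19, 55251938 to 55297720, forward strand), a mitochondrial and endoplasmic reticulum form of liver and intestine, was at 439, 428 and 527 CPM in WT and at 427, 443 and 555 CPM in *Themis*-KO livers. Replicate 3 was the highest in both groups, and the log2 fold change was 0.032 (95% interval −0.28 to 0.34, adjusted p = 0.887). *Acsl4* (chromosome X, 142317993 to 142390535, reverse strand), which prefers arachidonic acid and is known for its part in ferroptosis, was at 91.1, 70.3 and 118 CPM in WT and at 107, 102 and 83.5 CPM in *Themis*-KO livers. The *Themis*-KO livers lay inside the WT range, and the log2 fold change was 0.063 (95% interval −0.37 to 0.50, adjusted p = 0.839). For both genes the sign changed with single livers left out, and both were negative, at −0.15 for *Acsl5* and −0.28 for *Acsl4*, with the mitochondrial type as a covariate.

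**Figure D2:**
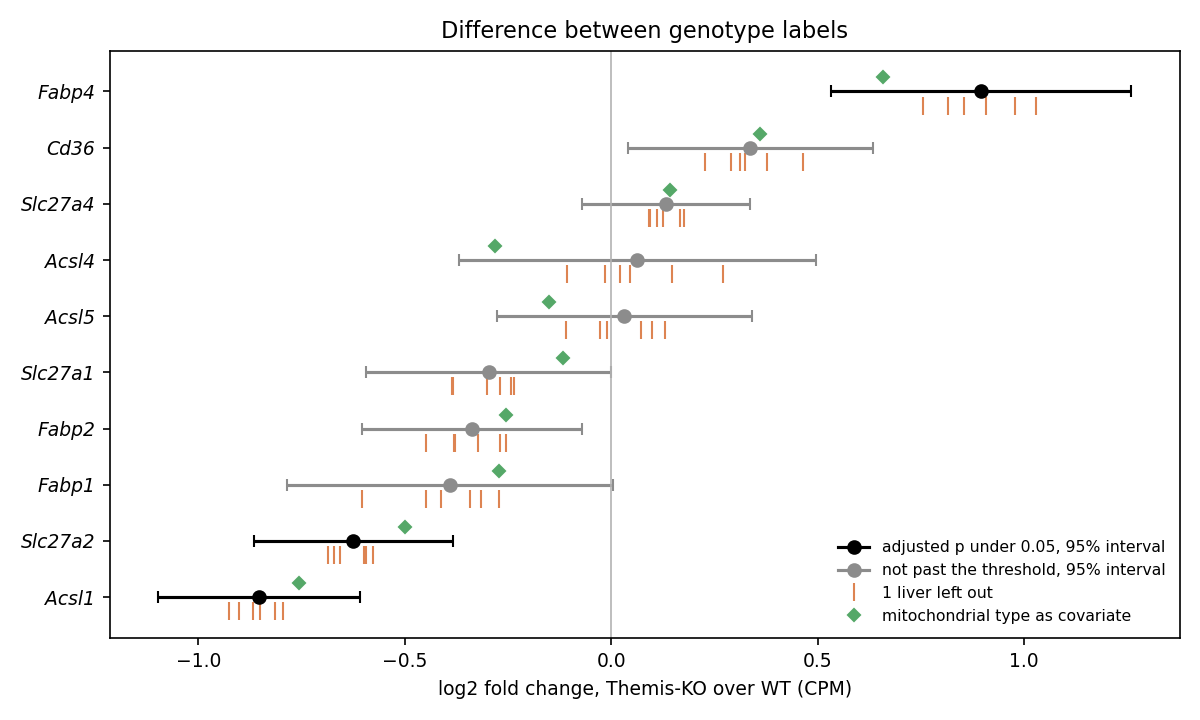
Log2 fold change of each gene, *Themis*-KO over WT (x axis), with its 95% interval in black where the adjusted p is under 0.05 and in grey otherwise, the values with 1 liver left out as orange ticks, and the value with the mitochondrial type as a covariate as a green diamond. *Acsl1* (−0.85), *Slc27a2* (−0.62) and *Fabp4* (0.90) keep their sign in each of these fits, and *Acsl4* and *Acsl5* lie on both sides of 0.

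*Slc27a2* and *Acsl1* were lower in livers in which hepatocyte markers were lower too. Of 12 hepatocyte markers, 2 were called lower, *Cyp2e1* and *Serpina1c*, and 0 higher, beside 4.14% and 4.97% of all genes. The median log2 fold change was −0.28, with 11 negative and *Hnf4a* positive (0.045). Genes named here were picked after their values were seen. The summed level was 65633 to 69871 CPM in WT and 50171 to 55721 CPM in *Themis*-KO livers, most of it *Alb*. As a percentage of that sum, *Acsl1* was at 1.78, 1.99 and 1.74 in WT and at 1.49, 1.23 and 1.23 in *Themis*-KO livers, without overlap. *Slc27a2* was at 2.99, 3.20 and 2.78 against 2.75, 2.39 and 2.39, so that WT replicate 3 and *Themis*-KO replicate 1 nearly met. *Fabp1*, at 7.43, 8.97 and 7.39 against 7.497, 6.64 and 9.15, and *Fabp2* overlapped. On this scale the log2 difference was −0.48 for *Acsl1*, −0.25 for *Slc27a2* and −0.038 for *Fabp1*. The hepatocyte markers' part in the differences was not tested.

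The makeup of each family was then set out as shares of its summed level per length, which do not depend on library scaling. Of the summed FATP level per length (*Slc27a1* to *Slc27a6*), *Slc27a2* took 68.0% ± 0.54 in WT and 68.2% ± 1.07 in *Themis*-KO livers. *Slc27a5* (FATP5, the bile acyl-CoA synthetase of liver) took 30.5% ± 0.59 and 29.5% ± 1.18. Both shares overlapped between the labels, while the sum was lower, at 1786 ± 64.6 against 1300 ± 65.3 TPM-like units. Unlike the shares, this sum depends on the scaling to the same total per liver, which was done without TMM. The minor *Slc27a4* took 0.942% to 1.13% in WT and 1.58% to 1.99% in *Themis*-KO livers. In the FABP family, *Fabp1* took 98.4% to 98.6% in WT and 98.0% to 98.5% in *Themis*-KO livers.

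In the ACSL family the order of the members differed between the labels. *Acsl1* took 50.4%, 53.1% and 43.9% of the summed level per length in the WT livers and 37.5%, 33.3% and 31.5% in the *Themis*-KO livers. *Acsl5* took 38.4%, 37.5% and 43.2% and then 46.2%, 51.4% and 55.2%. *Acsl1* was thus the larger share in each WT liver, by the least in WT replicate 3, and *Acsl5* in each *Themis*-KO liver. With the longest transcript as the length, *Acsl1* stayed ahead in 5 livers and *Acsl5*, at 46.7% against 43.0%, was ahead in *Themis*-KO replicate 3, so which is the larger depends on the length used. With either length, no WT liver overlapped a *Themis*-KO liver in its *Acsl1* share.

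**Figure D3:**
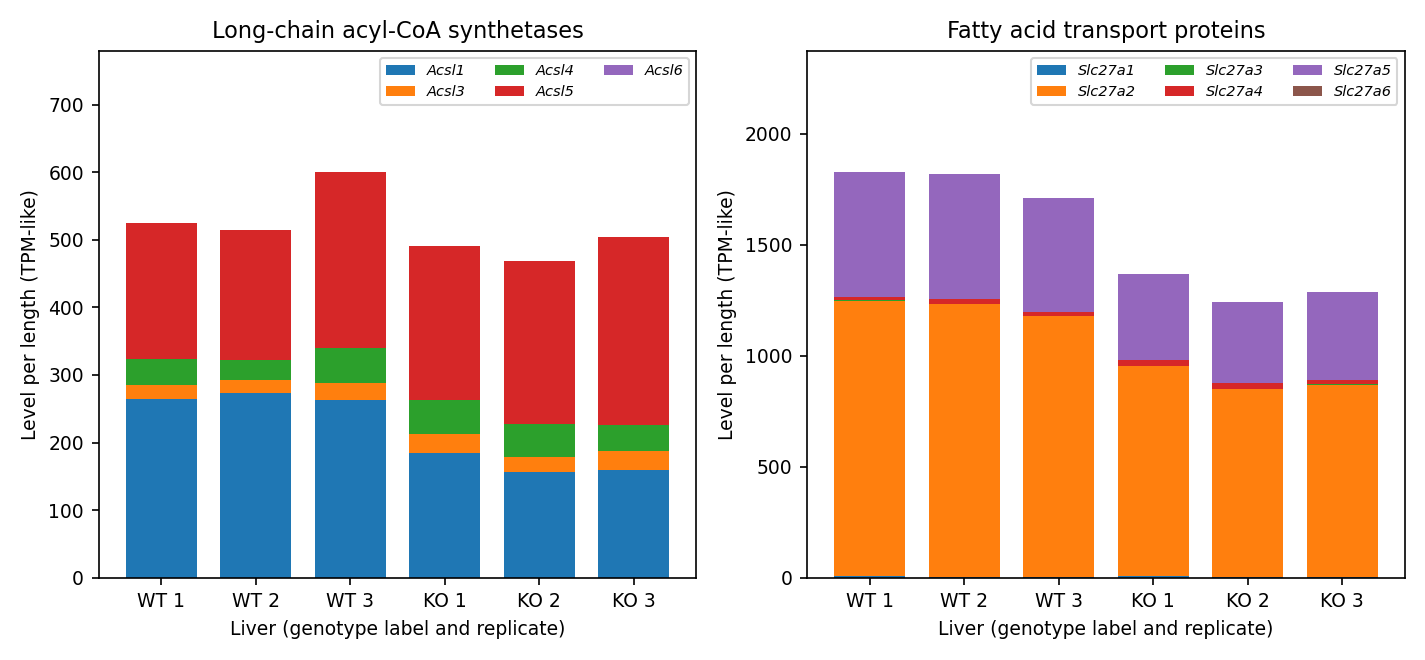
Level per length (y axis, TPM-like, from 0) of the ACSL genes (left) and the FATP genes (right), stacked for each liver (x axis). *Acsl1* is the larger part in the WT livers and *Acsl5* in the *Themis*-KO livers, while *Slc27a2* and *Slc27a5* keep their shares as the FATP sum is lower. The heights, unlike the shares, depend on the scaling to the same sum per liver.

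Ratios of the levels per length of 2 genes within a liver do not depend on library scaling either, and 7 were computed. *Acsl5* per *Acsl1* was 0.761, 0.707 and 0.984 in WT and 1.23, 1.54 and 1.75 in *Themis*-KO livers, a log2 difference of 0.88. *Cd36* per *Slc27a2* was 0.0740, 0.102 and 0.0977 in WT and 0.157, 0.203 and 0.176 in *Themis*-KO livers, a log2 difference of 0.97. *Fabp4* per *Fabp1* differed most, by 1.32 on the log2 scale, with 0.000766, 0.000528 and 0.000935 against 0.00212, 0.00227 and 0.00122. *Acsl4* per *Acsl1*, *Slc27a4* per *Slc27a1* and *Fabp1* per *Acsl1* were also higher in every *Themis*-KO liver, by 0.94, 0.43 and 0.445. *Fabp2* per *Fabp1* overlapped, with a log2 difference of 0.072. The exact two-sided permutation test gave p = 0.1 for each of the 6 ratios without overlap, the smallest that 3 livers against 3 allow, and 0.117 after Benjamini-Hochberg adjustment over the 7. The ratios share genes and are not independent. Of those without overlap, all but *Slc27a4* per *Slc27a1* hold a called member, so they largely repeat the calls. Ratios of other gene pairs were not computed, and 34.6% of single genes did not overlap between the labels.

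**Figure D4:**
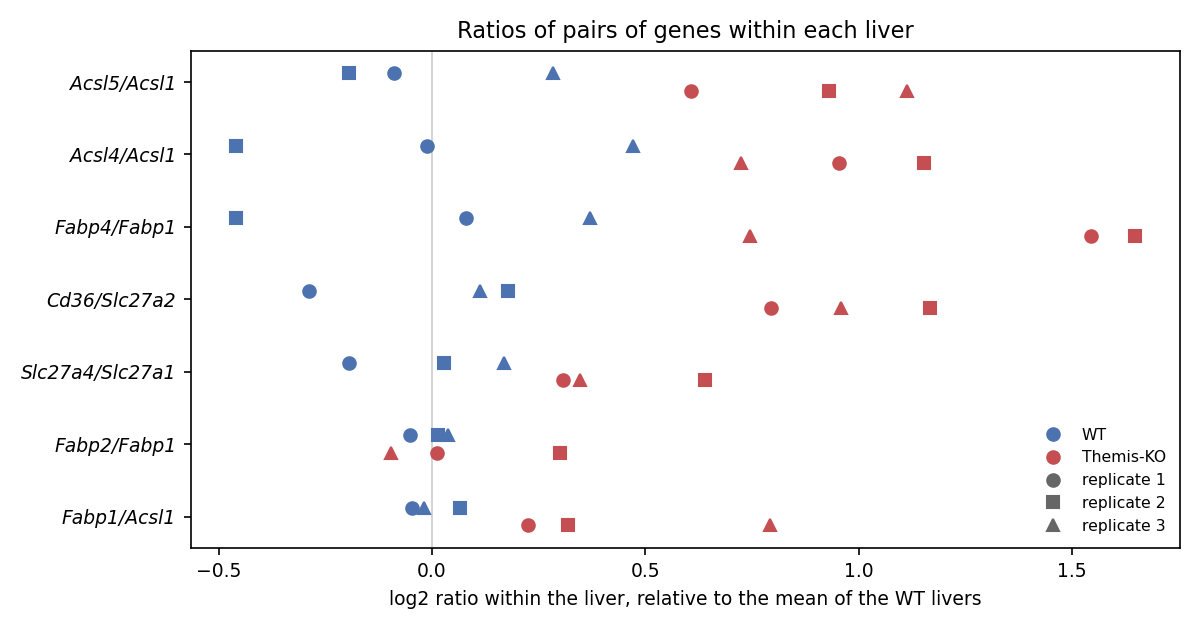
Log2 ratio of 2 genes within each liver, per length and relative to the mean of the WT livers (x axis), with WT in blue, *Themis*-KO in red and symbols for the replicate. In 6 of the 7 ratios the 3 red points lie to the right of the 3 blue ones, and for *Fabp2* per *Fabp1* they overlap. The ratios share genes, and no share over other gene pairs was computed.

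The other genes of fatty acid handling were counted by list, to be read beside the 9.11% of all genes called, 4.14% lower and 4.97% higher. Of the other family members, 11 of 14 were in the table and 5 were tested. *Slc27a5* was the 1 called and fell by 0.68 (SE 0.11, adjusted p = 0.0209), from 587 ± 57.2 to 367 ± 30.5 CPM. Of 18 genes of acyl-CoA binding and hydrolysis, 2 were lower, 1 higher and the other 15 not called. The cytosolic thioesterase *Acot1* fell by 0.59 (adjusted p = 0.0416) and the medium-chain synthetase *Acsm1* by 0.61 (adjusted p = 0.0246), while the mitochondrial thioesterase *Acot9* rose by 1.06 (adjusted p = 0.0345). Of 15 tested genes of extracellular release and membrane partners, *Lpl* rose by 0.76 (adjusted p = 0.0412), from 55.1 ± 10.97 to 93.2 ± 15.8 CPM, and the other 14 were not called. Lipoprotein lipase frees fatty acids from circulating triglyceride. Of 10 genes of mitochondrial and peroxisomal entry edgeR called 0, with 5 at an unadjusted p under 0.05, as 30.7% of all genes were. DESeq2 called 2, beside 15.1% of all genes. The most abundant were *Cpt1a*, the carnitine palmitoyltransferase of liver, at −0.38 (adjusted p = 0.0605), and *Abcd3*, a peroxisomal importer, at −0.42 (adjusted p = 0.130).

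The called genes of the lists named for the PPARs differed in direction. Of 17 genes of the PPARα axis, 5 were lower and 0 higher, beside 4.14% and 4.97% of all genes. The fatty acid omega-hydroxylase *Cyp4a10* fell by 1.21 (adjusted p = 0.0266), *Cyp4a32* by 0.90 (adjusted p = 0.0304) and the receptor *Ppara* by 0.52 (adjusted p = 0.0345). *Rxra*, the partner receptor, was also called, at −0.42 (adjusted p = 0.0351), named after its value was seen. *Pdk4*, which restrains glucose oxidation, had the largest difference of the list and in the other direction, named after its values were seen. It was at 13.7, 10.99 and 21.7 CPM in WT and at 149, 85.3 and 17.2 CPM in *Themis*-KO livers, so *Themis*-KO replicate 3 lay in the WT range (log2 fold change 2.44, adjusted p = 0.0596). *Fgf21*, a hepatokine, was at 0.92 (adjusted p = 0.125). The *Cyp4a* genes are close paralogs that can share reads. Of 17 tested genes of PPARγ and lipid droplets, 3 were higher and 0 lower. The droplet coat genes *Plin4* and *Plin3* rose by 0.87 (adjusted p = 0.0161) and 0.40 (adjusted p = 0.0366), and *Cidec*, which promotes the growth of droplets, rose by 0.62 (adjusted p = 0.0249). *Pparg* was at 26.1 ± 9.07 and 28.5 ± 3.21 CPM (adjusted p = 0.728). The median log2 fold change was −0.18 for the PPARα axis and 0.12 for the droplet list. It was 0.11 for the other family members, −0.33 for acyl-CoA binding, −0.030 for extracellular release and −0.25 for entry. With scaling to total counts these medians were −0.040, 0.26, 0.24, −0.20, 0.097 and −0.11, so the sign for extracellular release turned and the PPARα median came close to 0. Over the 6 lists, 13 of 82 genes were called, 5 higher and 8 lower, beside 9.11% of all genes, 4.97% higher and 4.14% lower. With that scaling 9 were higher and 6 lower, beside 1449 and 387 of all 14496 genes tested. With *Themis*-KO replicate 3 left out, edgeR called 36 of 83, beside 4267 of all 14806 genes tested. It called 11 of 83 without WT replicate 3, beside 850 of 14830, and 1 of 84 without WT replicate 2, beside 76 of 14855. For each of the remaining 3 livers it called 0, beside 20 to 68 of all genes. In these fits 28 to 49 had an unadjusted p under 0.05, beside 19.9% to 42.5% of all genes. None was called with the mitochondrial type as a covariate, when 14 had an unadjusted p under 0.05, as did 10.5% of all genes.

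**Figure D5:**
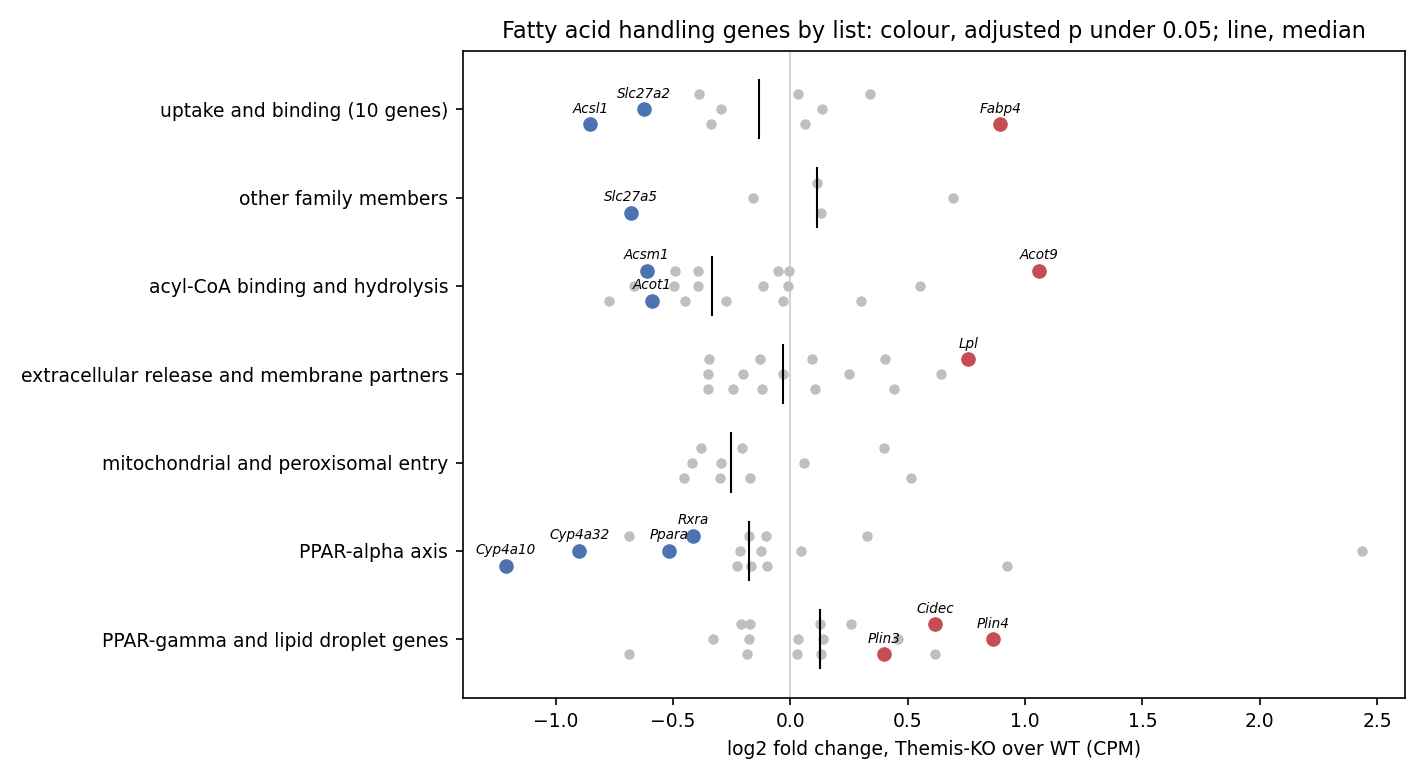
Log2 fold change, *Themis*-KO over WT (x axis), of the tested genes of each list (rows), with genes past an adjusted p of 0.05 in blue (lower) or red (higher) and, but for 1 that is left out, named, the others in grey, and the list's median as a black line. *Acsl1*, *Slc27a2* and *Slc27a5* lie among the lower genes with *Ppara* and *Cyp4a10*, and *Fabp4* among the higher genes with *Lpl* and *Plin4*.

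Profiles over the 6 livers were compared by the root mean square difference of log2 CPM after each gene was centred on its own mean. Nearest to *Slc27a2* were *Gpld1* (0.0334), *Hagh* (0.0538) and *Slc27a5* (0.0578). Nearest to *Acsl1* were *Zfp992* (0.0562), *Fzd8* (0.0570) and *Slc15a5* (0.0810), and nearest to *Fabp4* were *Elf4* (0.0617), *Tnfrsf21* (0.0652) and *Cxcr4* (0.0675). The points are the same 6 libraries for every gene, and the measure is a description.

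Marker lists of the remaining cell types and of sex-biased liver expression were read for the same livers. Over all genes tested, 4.97% were called higher and 4.14% lower. Of 11 hepatic stellate cell markers, 5 were called higher, and the sum was 561 to 623 CPM in WT and 817 to 847 CPM in *Themis*-KO livers. Of 8 tested cholangiocyte markers, 2 were higher, with a sum of 168 to 208 against 400.4 to 632 CPM, most of it *Spp1*. Without *Spp1* the sum was 28.0 to 32.2 against 33.3 to 61.8 CPM. Among 7 tested T cell markers, 1 was called, *Cd4*, lower at a mean of 1.63 CPM in WT against 0.591 CPM in *Themis*-KO livers. Of the 7, 4 had a positive and 3 a negative log2 fold change, with a median of 0.0055. Of 6 B cell markers 0 were called by edgeR or DESeq2 and 0 had an unadjusted p under 0.05. Of 5 tested adipocyte markers, 2 were lower, *Cfd* and *Lipe*. The genes named from these marker lists were chosen after their values were seen. Of 15 genes known as male biased in mouse liver, 11 were lower and 0 higher. Of 7 tested female-biased genes edgeR called 0 and DESeq2 1, beside 15.1% of all genes with DESeq2. In edgeR 2 had an unadjusted p under 0.05, beside 30.7% of all genes, and the median log2 fold change was 0.51. The female-biased list shares *Abcd2* and *Acot3* with the pathway lists. *Cd36* is known to be higher in female than in male mouse liver, and the bearing of these lists on it was not tested.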

How the data were processed

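Liver mRNA of 3 WT and 3 *Themis*-KO mice was compared. Per the labels' processing notes, the authors used cutadapt 2.3, STAR 2.7.8a with GRCm38 and RSEM 1.3.3. The deposited unit is the estimated count of a gene in a liver, not normalized by the authors and held as whole numbers. Because RSEM shares out reads with several possible origins, paralogs influence each other's values. Groups and replicate numbers came from the sample titles. The labels do not say more of how the mice were chosen. The p-values set the difference between the labels against the variation among these livers within a label, estimated in part across genes.

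The test was edgeR 4.0.16 under R 4.3.3 (filterByExpr, TMM, glmQLFit and glmQLFTest on 6 livers without covariates). Of 25403 genes, 14496 were tested, and p-values were adjusted over them by the Benjamini-Hochberg method with a threshold of 0.05. Fold changes are from this fit, which adds a small prior count, and each SE is the absolute log2 fold change over the square root of F. Libraries held 20679642 to 25649767 counts, and the common biological coefficient of variation was 0.157. No pair of libraries agreed within sampling noise (lowest chi-square per degree of freedom 9.83). Coordinates and exon lengths, for 25353 genes, came from GENCODE vM21 on GRCm38. Levels per length are counts per exon length, scaled to the same sum per liver.

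The members and gene lists were chosen with earlier results of these data known. Named genes are the members, up to 4 called genes per list with the largest change, or the 2 most abundant where none was called, and the 3 genes nearest to each called member. *Rxra*, *Pdk4*, *Fgf21* and *Pparg* were named outside this rule. Alternatives were RLE, upper quartile and total count scaling, other filters, DESeq2 1.42.0, limma-voom (limma 3.58.1), the replicate number or mitochondrial type in the model, each liver left out, an adjusted p of 0.1 and the longest transcript as length. The fits were tested on simulated counts. Figures were drawn with matplotlib 3.10.9. 1 called gene of the PPARα list is counted but not reported here. The qPCR, histology and single-nucleus data were not analysed here.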

Additional observations from a re-analysis of the deposited data

How the results depend on the processing

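The main fit tested 14496 genes, the fit without a filter on low counts 25403 and DESeq2 15056. Of the pathway lists these fits tested 82, 90 and 83 genes. From 1321 genes called, 3 of them members and 13 of the 82 tested genes of the pathway lists, the counts moved as follows. Over all genes they were 2179 without a filter on low counts, 2279 with DESeq2, 2980 at an adjusted p of 0.1 and 3 with the mitochondrial type as a covariate, and over the pathway lists 25, 26, 26 and 0. With 1 liver left out in turn they ran from 20 to 4267 over all genes, from 0 to 5 members and from 0 to 36 pathway genes, in each case with the highest value without *Themis*-KO replicate 3. At an unadjusted p under 0.05, edgeR gave from 3 to 5 members and from 28 to 49 pathway genes in these fits, beside 19.9% to 42.5% of all genes, against 6 and 34, beside 30.7%, in the fit on 6 livers. With the mitochondrial type, 0 members were called, and 3 members, 14 pathway genes and 10.5% of all genes had an unadjusted p under 0.05. DESeq2 called 3 members, beside 15.1% of all genes, and the other scalings and filters also called 3 members. The causes were not tested.

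Deviations from the group means correlated at −0.161 on average between livers sharing a replicate number and at 0.0798 between other pairs. Of the 6 livers, 0 correlated best with their own number. Such deviations cancel within each group, which ties these averages to opposite signs. With so few livers per group, this check cannot decide whether the numbers mark pairs. The paper describes the sequenced livers as pairs of WT and *Themis*-KO, and does not say whether the numbers mark them. The main fit did not use the numbers as pairs. With the replicate number as a block, edgeR called 62 genes, 0 members and 0 pathway genes. At an unadjusted p under 0.05 it gave 5 members and 34 pathway genes, beside 23.8% of all genes.

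Of 160 alternative values of the members' log2 fold changes, 133 kept their direction and side of the threshold, 17 lost the call, 3 gained it and 7 changed sign. With single livers left out, *Acsl4* ran from −0.11 to 0.27 and *Acsl5* from −0.11 to 0.13. *Acsl4* was −0.28 with the mitochondrial type, −0.11 without WT replicate 2 and −0.014 without *Themis*-KO replicate 1. *Acsl5* was −0.15 with the mitochondrial type, −0.0095 without WT replicate 1, −0.026 without WT replicate 2 and −0.11 without *Themis*-KO replicate 3. None of these 7 was past the threshold.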
